A study of Mus musculus with 6 samples.

Results

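The transcripts of the nuclear-encoded subunits of mitochondrial complex I were followed in RNA sequencing of whole mouse kidneys. The subunits were taken as the rows of the count tables whose gene symbol is Nduf followed by a, b, c, s or v and a number, or is Ndufab1, with at least 10 counts in 3 or more of the 6 libraries. Assembly factors, whose symbols begin with Ndufaf, were left out. Of 24422 rows, 38 matched by symbol and 37 passed the count rule. The row that did not pass was Ndufs5, listed at 0 counts in all 6 libraries. Each of the 37 members held at least 107 counts in every library.

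The kidneys came from C57BL/6 mice at postnatal day 60 that were fed an iron-sufficient diet of 220 ppm iron. There were 3 control mice, labelled wild type, and 3 TfR1KO;KspCre mice with the genotype Tfr1f/f;KspCre, called knockouts here. Tfr1 (gene symbol Tfrc) encodes the transferrin receptor, which carries iron-loaded transferrin into cells. In the knockouts, loxP sites flank exons of this gene, and KspCre expresses Cre recombinase from the Ksp-cadherin promoter, whose activity is in distal parts of the nephron. The deletion therefore applies to a part of the tubule, while the RNA came from every cell type of the kidney. The comparison asks how transcripts differ between these kidneys and wild-type kidneys.

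Complex I is the entry point of the mitochondrial respiratory chain. Its matrix arm takes electrons from NADH (N module), passes them along a row of iron-sulfur clusters and hands them to ubiquinone (Q module), and its membrane arm pumps protons. Core subunits carry out these reactions, and accessory subunits surround them. The core subunits encoded by mitochondrial DNA were not analysed here. Tubule cells of the kidney, among them those of the proximal tubule, are rich in mitochondria.

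The deposited values were raw counts per gene, and total counts ranged from 11501053 to 21001341 per library. Markers of the proximal tubule (Slc34a1), thick ascending limb (Umod), collecting duct (Aqp2) and podocyte (Nphs1) were detected in every library. The libraries were not alike within groups. Knockout 1 lay between the controls and the other knockouts in most values given here, knockout 3 was the smallest library with 2.59% of its counts from the ribosomal RNA gene Rn45s (0.506% to 0.745% in the other 5), and control 2 held 3980 counts of Y-linked transcripts (at most 5 in the others) and almost no Xist (52 counts). Sex was not in the labels. Tfrc had 2783, 2856 and 1032 counts in controls against 4368, 1713 and 530 in knockouts, and these counts, which cover the whole gene and all cells, gave no check of the labels.

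The complex I subunits were lower in knockout kidneys as a group. Of the 37 members, 36 had a negative log2 fold change (knockout over control), and 33 were lower in every knockout library than in any control library. Such non-overlapping groups with lower knockouts were found for 22.2% of all genes tested. The median log2 fold change of the members was -0.83, beside 0.02 over the 15171 genes tested. In whole-kidney RNA, fewer cells of a type and less RNA per cell cannot be told apart. At an adjusted p threshold of 0.05 (Benjamini-Hochberg over all genes, from the quasi-likelihood test of edgeR), 9 members fell and 0 rose. No member rose by DESeq2's Wald test or limma-voom either, and 0 had a positive value with an unadjusted p under 0.05. Over all genes, 6.64% fell and 10.6% rose at this threshold. Most of the others lay just outside it, as the unadjusted p was under 0.05 for 32 and the adjusted p under 0.10 for 30. Over all genes tested, these shares were 38.6% and 33.2%.

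The calls depended on which libraries were in the fit. The number of members called was 0 without control 1, without control 2, without control 3, without knockout 2 and without knockout 3, when 29, 28, 20, 15 and 16 members, respectively, had an unadjusted p under 0.05. Over all genes, 4808, 4270, 4823, 4604 and 4456 did so in these fits. In the same order, the median log2 fold change of the members was -0.94, -0.88, -0.81, -0.70 and -0.72. Without knockout 1, 35 members were called, all lower, and the median log2 fold change of the members was then -1.21. That fit called 16.4% of all genes lower and 18% higher, so the number called rose over all genes too. The direction did not depend on 1 library, as the same number of members, 36 of 37, had a negative log2 fold change in each of these fits. On all 6 libraries, DESeq2's Wald test, the tool of the study, called 31 members lower, beside 15% of all genes lower and 17.1% higher. Scaling by library size alone left 4, beside 4.36% lower and 19.7% higher. Over all genes, edgeR called 0 without any 1 of the controls. It called 6 lower and 67 higher without knockout 2, and 0 lower and 2 higher without knockout 3.

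**Figure D1:**
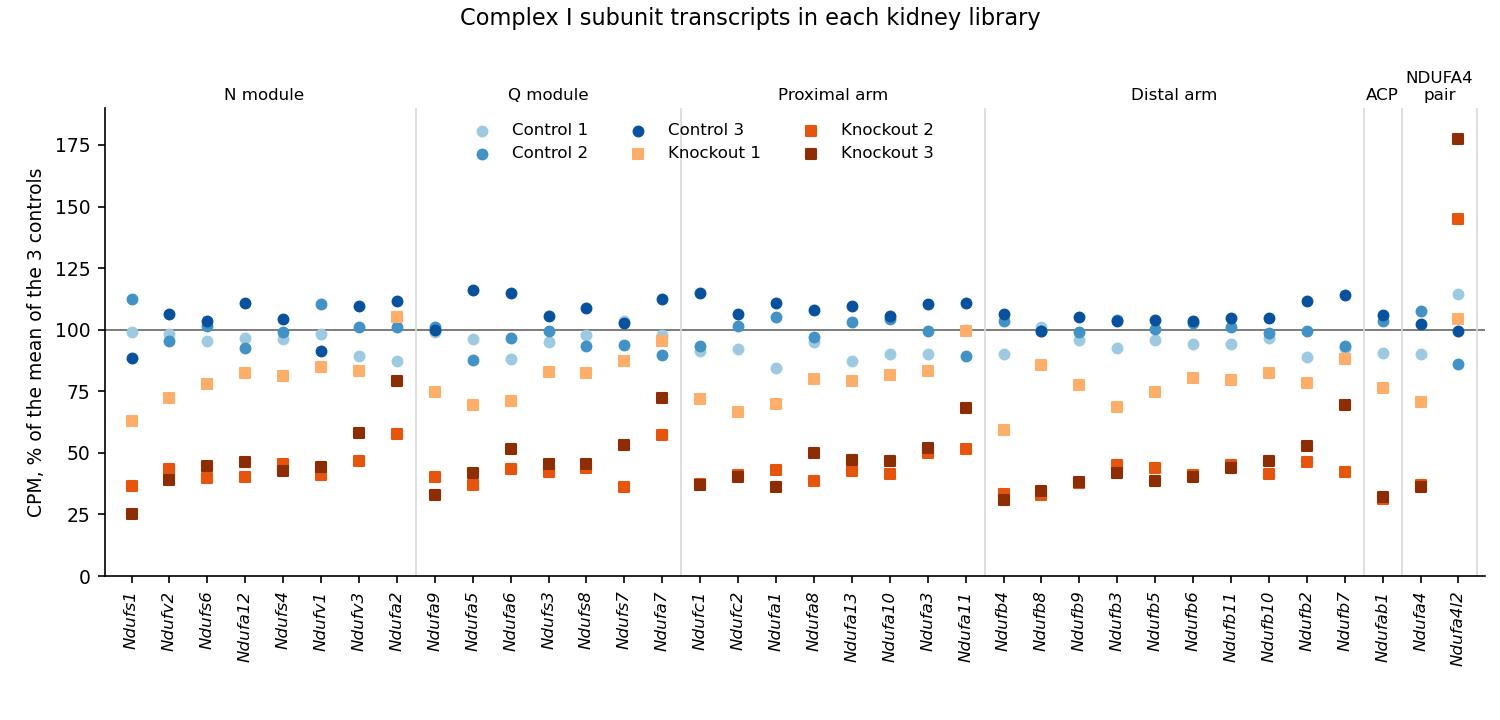
Level of 36 of the 37 complex I subunits in each library, as a percentage of the mean TMM-normalised CPM (counts scaled to a fixed library size) of the 3 controls; circles are controls, squares are knockouts, and members are grouped by their place in the complex. The squares of knockouts 2 and 3 lie low (medians 41.5% and 44.2% over all members except Ndufa4l2, which include 1 not drawn), those of knockout 1 higher (79.3%), and Ndufa4l2 at the right is the exception.

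The knockout libraries did not share 1 level. The summed counts of the 37 members made up 0.696%, 0.659% and 0.739% of the counts of controls 1 to 3, and 0.626%, 0.354% and 0.378% of those of knockouts 1 to 3. Wilson 95% intervals for counting error alone reached at most 0.629% for knockout 1 and began at 0.655% for control 2, the nearest control. As TMM-normalised CPM the sum was 7671 ± 369 (SD, n = 3) in controls and 4169 ± 1600 (SD, n = 3) in knockouts, or 54.4% of the control mean. The SD of the knockouts came from the gap between knockout 1 and the other knockouts. Leaving aside Ndufa4l2, the median member stood at 95.1%, 99.9% and 106% of the control mean in controls 1 to 3, and at 79.3%, 41.5% and 44.2% in knockouts 1 to 3. The proximal tubule marker list (16 genes) also placed knockout 1 between the controls and the other knockouts, with a summed CPM of 22875, 33278 and 30528 in controls and 12146, 5067 and 3787 in knockouts. The part of cell composition in the complex I result was not tested.

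The 150 bases before the annotated start are given for 3 members, chosen after their values were seen because they hold letters of a searched motif, which most members lack there. They are Ndufb4, the member with the most negative log2 fold change, Ndufs3, a core subunit near the median, and Ndufa11, whose groups overlapped. The sequences are from RefSeq on GRCm38.p6, 5′ to 3′ on the gene's own strand, and capitals mark letters of AAGGTCA (estrogen-related receptor, ERR) in Ndufb4, CCGGAAG (ETS factors, including GABP) in Ndufs3 and GCGCATGC on both strands (NRF1) in Ndufa11.
Ndufb4 (chr16:37654369-37654518, minus strand): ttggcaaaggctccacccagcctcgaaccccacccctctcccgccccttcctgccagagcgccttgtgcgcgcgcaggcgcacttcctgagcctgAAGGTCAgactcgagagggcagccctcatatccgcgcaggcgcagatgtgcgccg
Ndufs3 (chr2:90904722-90904871, minus strand): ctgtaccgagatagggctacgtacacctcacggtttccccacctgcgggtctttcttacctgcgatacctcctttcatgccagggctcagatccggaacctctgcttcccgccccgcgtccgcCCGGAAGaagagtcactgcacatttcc
Ndufa11 (chr17:56717612-56717761, plus strand): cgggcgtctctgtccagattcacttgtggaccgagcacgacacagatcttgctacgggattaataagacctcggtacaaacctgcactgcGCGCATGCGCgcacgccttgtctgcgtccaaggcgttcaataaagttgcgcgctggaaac
RefSeq promoter windows, from 250 bases before to 50 bases after the start, matched 32 of the 37 members; those with no entry included Ndufs1, Ndufb9, Ndufa2 and Ndufa4l2. Searched on both strands, the ERR letters occurred in 2 of the 32 (6.25%; Ndufb2 and Ndufb4), beside 4.21% of the 11488 tested genes with a window. The NRF1 letters occurred in 3 (9.38%; Ndufa6, Ndufa8 and Ndufa11) beside 5.38%, and the ETS letters in 4 (12.5%; Ndufb6, Ndufb7, Ndufs3 and Ndufs8) beside 17.7%. The letters AAGATGGCG of YY1 occurred in 5 (15.6%; Ndufa9, Ndufc1, Ndufs4, Ndufs6 and Ndufs7) beside 3.11%, and none of these 5 matches lay wholly before the start. CCAAT occurred in 31.3% of the members and 42.0% of the tested genes, and TATAAA in 12.5% and 9.28%. Most of the 32 members with a window held none of the first 4 of these motifs, and a match is a description of the letters only.

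The N module, which oxidises NADH, had 8 members, of which 2 fell, beside 6.64% of all genes. Their median log2 fold change was -0.83 over the 8 members. Ndufs1 encodes the largest subunit, which holds several iron-sulfur clusters. It was at 304, 344 and 271 CPM in controls against 193, 111 and 76.9 CPM in knockouts. Every knockout was below every control, and knockout 3 was lowest. The log2 fold change was -1.27 (SE 0.34; adjusted p = 0.0463, edgeR). Ndufv2, which holds a further iron-sulfur cluster, was at 255, 248 and 276 CPM in controls against 188, 113 and 101 CPM in knockouts, and fell by 0.95 on the log2 scale (SE 0.25; adjusted p = 0.0466, edgeR). Ndufv1 binds NADH and the flavin that accepts its electrons. It stood at 369 ± 35.3 CPM (SD, n = 3) in the control group and 209.8 ± 90.5 CPM (SD, n = 3) in knockouts, with no overlap and a log2 fold change of -0.82 that did not pass (adjusted p = 0.0978, edgeR). The accessory subunits Ndufs4, Ndufs6, Ndufa12 and Ndufv3 lay between -0.89 and -0.67 without passing.

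Ndufa2, an accessory subunit of the N module, was the exception among its neighbours. Its CPM was 168, 195 and 215 in controls and 203, 111 and 153 in knockouts. Knockout 1 lay within the control range, and only knockouts 2 and 3 lay below it. The log2 fold change was -0.31 (SE 0.24; adjusted p = 0.375, edgeR), the least negative of the members below 0. The annotation places an exon of Tmco6 over Ndufa2, so its count is uncertain where the counting did not use strand.

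The Q module, which reduces ubiquinone, had 8 members with a median of -0.83, of which 2 fell, beside 6.64% of all genes. The 2 that fell were the accessory subunits Ndufa5 and Ndufa6. Ndufa5 was at 156, 142 and 188 CPM in controls against 112, 59.8 and 68.0 CPM in knockouts (log2 fold change -1.02, SE 0.26; adjusted p = 0.0445, edgeR). Ndufa6 was at 169, 186 and 221 CPM in controls against 137, 83.0 and 99.2 CPM in knockouts (log2 fold change -0.85, SE 0.22; adjusted p = 0.0445, edgeR). In both genes the highest knockout was knockout 1 and the lowest was knockout 2.

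The core subunits Ndufs3, Ndufs7 and Ndufs8 of the Q module did not pass, although none overlapped between groups. Ndufs7, which holds the last iron-sulfur cluster before ubiquinone, was at 191, 173 and 189.9 CPM in controls against 161, 66.4 and 98.1 CPM in knockouts (-0.77, SE 0.31; adjusted p = 0.118, edgeR). For Ndufs7, knockout 1 lay close under the lowest control. Ndufs3 and Ndufs8, the latter also an iron-sulfur protein, had values of -0.81 (adjusted p = 0.0777) and -0.80 (adjusted p = 0.0739, edgeR). Ndufa7, an accessory subunit, overlapped between groups, with 98.5, 90.1 and 113 CPM in controls against 96.1, 57.5 and 72.5 CPM in knockouts (-0.42, SE 0.21; adjusted p = 0.187).

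Subunits that hold an iron-sulfur cluster had a median close to that of the others. The 5 such members (Ndufs1, Ndufs7, Ndufs8, Ndufv1 and Ndufv2) had a median log2 fold change of -0.82, and 2 of them fell. The other 30 members, without Ndufa4 and Ndufa4l2, had a median of -0.84, and 7 of them fell. The difference between these lists was not tested, and 6.64% of all genes fell.

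**Figure D2:**
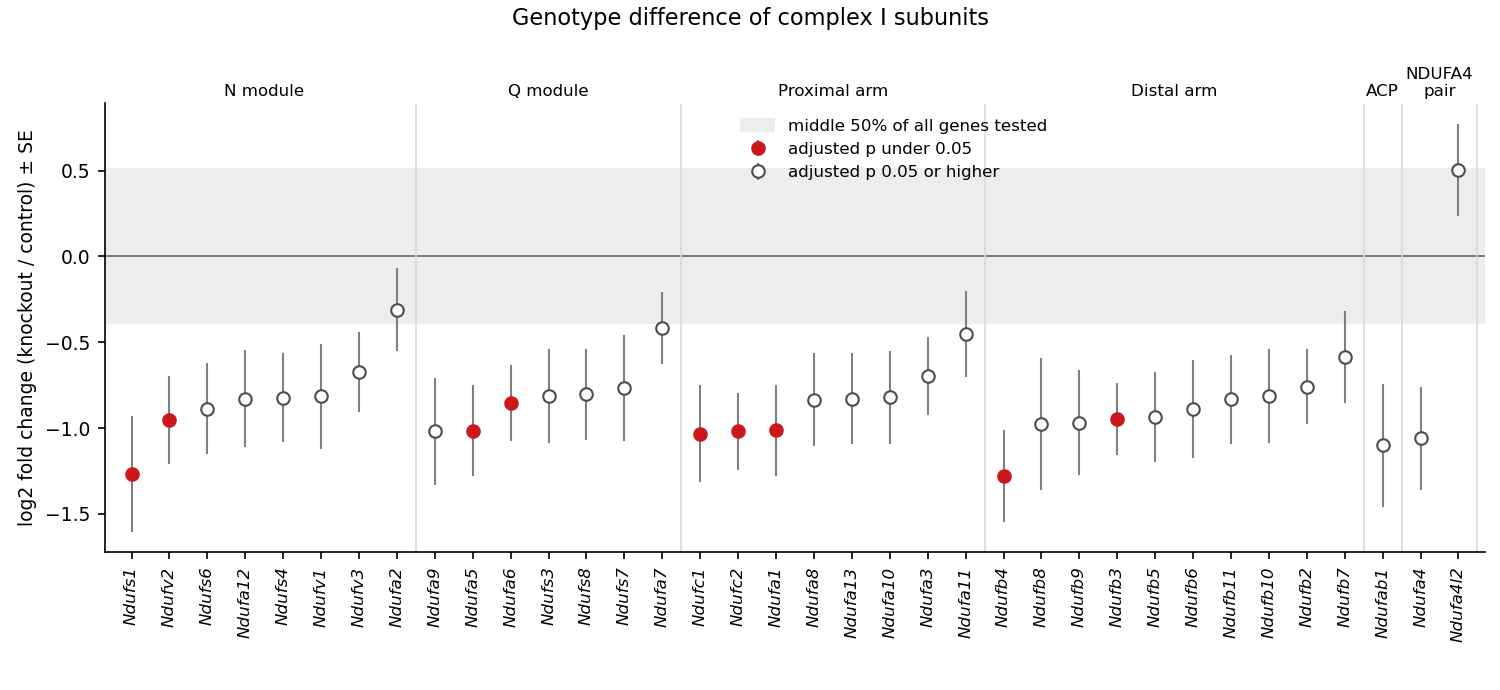
Log2 fold change of 36 of the 37 complex I subunits, knockout over control, with its standard error (edgeR, 3 libraries per group); red points have an adjusted p under 0.05 and the grey band holds the middle 50% of all genes tested. All members shown but Ndufa4l2 lie below 0, and Ndufa2 alone among those lies inside the band.

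The 8 members of the proximal part of the membrane arm had a median of -0.83, and 3 fell, beside 6.64% of all genes. Ndufc1, Ndufc2 and Ndufa1 are small accessory subunits. Ndufc2 was at 137, 151 and 159 CPM in controls against 99.4, 61.3 and 59.8 CPM in knockouts (log2 fold change -1.02, SE 0.22; adjusted p = 0.0339, edgeR). Ndufc1 was at 118 ± 15.4 CPM (SD, n = 3) in the control group and 57.7 ± 23.5 CPM in knockouts (-1.03, SE 0.28; adjusted p = 0.0493). Ndufa1, on the X chromosome, was at 138 ± 19.1 CPM in controls against 68.1 ± 24.4 CPM in knockouts (-1.01, SE 0.27; adjusted p = 0.0451). All 3 genes had non-overlapping groups. Ndufa11 overlapped, because knockout 1 (123 CPM) lay among the controls (123, 110.4 and 137 CPM), while knockouts 2 and 3 were at 63.7 and 84.1 CPM. Its log2 fold change was -0.45 (SE 0.25; adjusted p = 0.219, edgeR). The other 4, Ndufa3, Ndufa8, Ndufa10 and Ndufa13, lay between -0.83 and -0.70 with no overlap and adjusted p-values from 0.0681 to 0.0739.

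The distal part of the membrane arm had 10 members, with a median of -0.91. All had non-overlapping groups with lower knockouts, beside 22.2% of all genes, and 2 of them fell, beside 6.64%. Ndufb4, an accessory subunit, was at 161, 185 and 189.8 CPM in controls against 106, 59.6 and 55.0 CPM in knockouts, and fell to 41.1% of the control mean (log2 fold change -1.28, SE 0.27; adjusted p = 0.0326, edgeR). Ndufb3 was at 104, 116 and 116 CPM in controls against 77.0, 50.5 and 46.8 CPM in knockouts (-0.94, SE 0.21; adjusted p = 0.0343). With Ndufc2, these genes had the smallest unadjusted p-values of all members (0.00211, 0.00275 and 0.00286 for Ndufb4, Ndufc2 and Ndufb3). Ndufb8 showed the reverse: its 3 controls lay within 344 to 349 CPM, but its knockouts were at 296, 113 and 119 CPM, and its value of -0.97 (SE 0.38) did not pass (adjusted p = 0.112). Ndufb7 was the distal member nearest to 0, at 121, 122 and 149 CPM in controls against 115, 55.5 and 90.7 CPM in knockouts (-0.59, SE 0.27; adjusted p = 0.154, edgeR). The other 6 distal members lay between -0.97 and -0.76.

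Ndufab1 encodes the mitochondrial acyl carrier protein, which is a subunit of complex I and also serves mitochondrial fatty acid synthesis. It was at 137, 157 and 159.8 CPM in controls against 115, 47.3 and 48.3 CPM in knockouts. Knockout 1 lay close under the controls and the other knockouts far below. The log2 fold change of -1.10 (SE 0.36) was the third most negative of the members, and did not pass (adjusted p = 0.0716, edgeR).

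Ndufa4 and Ndufa4l2 are related genes whose values differed in sign. Ndufa4 bears a complex I name, but its protein is now assigned to cytochrome c oxidase, and NDUFA4L2 is known as a product induced by the hypoxia-inducible factor HIF-1. Ndufa4 was at 493, 589 and 559 CPM in controls against 385, 203 and 198 CPM in knockouts (log2 fold change -1.06, SE 0.30; adjusted p = 0.0524, edgeR). Ndufa4l2 was at 8.36, 6.29 and 7.26 CPM in controls against 7.61, 10.6 and 12.9 CPM in knockouts. Knockouts 2 and 3 exceeded the controls and knockout 1 lay among them, so the value of 0.50 (SE 0.27) did not pass (adjusted p = 0.207, edgeR). Per kilobase of transcript, Ndufa4 had the highest control level of all members, at 1111 CPM per kb, and Ndufa4l2 the lowest, at 7.61 CPM per kb. In knockouts these levels were 533 and 10.8 CPM per kb.

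Levels per kilobase of the other members spanned a narrower range in controls. Ndufb9 (572 CPM per kb) and Ndufb8 (508 CPM per kb) followed Ndufa4, and Ndufs4 (86.1 CPM per kb) and Ndufa11 (46.4 CPM per kb) were the lowest after Ndufa4l2. The size of the difference between genotypes did not follow this order, as the Spearman rho between control level per kilobase and log2 fold change was -0.00 across 36 members. This is a correlation across genes of the same 6 libraries, and genes are not independent replicates.

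The make-up of the complex I transcript pool was compared within each library, as the level of each member as a percentage of the summed CPM of the 35 members other than Ndufa4 and Ndufa4l2. This share overlapped between groups for 27 members. It was higher in all knockouts than in any control for 6 (Ndufa2, Ndufa4l2, Ndufa7, Ndufa11, Ndufs3 and Ndufv3) and lower for 4 (Ndufa4, Ndufb4, Ndufb9 and Ndufc1). Ndufa2 made up 2.49%, 2.73% and 2.90% of the pool in controls and 3.62%, 3.77% and 4.89% in knockouts. Ndufa7 made up 1.45%, 1.26% and 1.52% in controls and 1.71%, 1.95% and 2.32% in knockouts. For both, knockout 3 was farthest from the controls. Ndufb4 went the other way, with 2.37%, 2.59% and 2.55% in controls and 1.88%, 2.02% and 1.76% in knockouts. These members were picked for not overlapping, so the position of their knockouts is fixed by that choice. The shares were not tested, and a share within a pool shows only unequal change. How many of all genes would not overlap by this measure was not computed, so these counts have no background beside them.

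**Figure D3:**
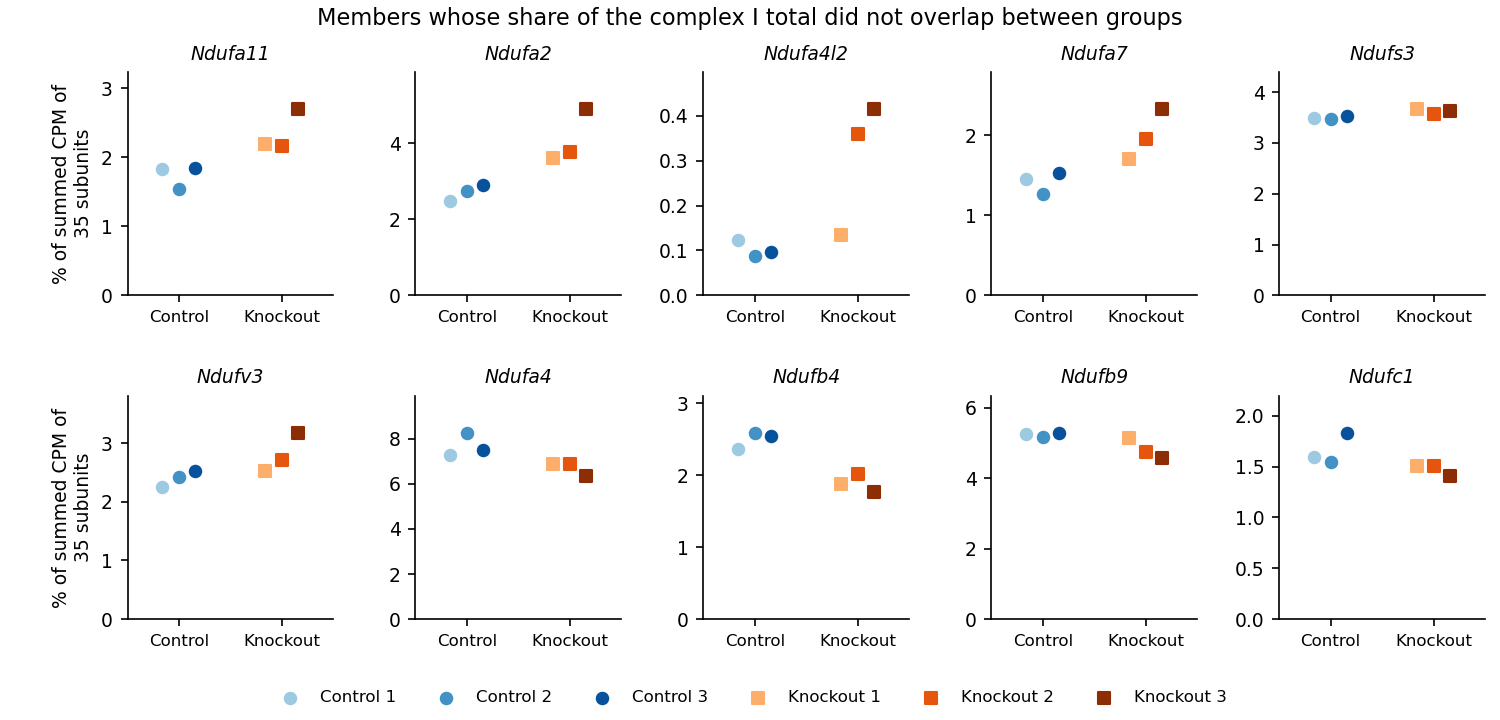
Level of each of the 10 members whose share did not overlap between groups, as a percentage of the summed CPM of the 35 members other than Ndufa4 and Ndufa4l2, in each library (y axes start at 0 and differ in scale). Ndufa2, Ndufa7 and Ndufa11 took a larger part of the pool in all 3 knockouts, and Ndufb4 a smaller part.

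Members with GC-rich transcripts stood closer to control levels. The 36 members without Ndufa4l2 had transcripts of 351 to 2661 bases with GC contents from 42.5% to 60.8%. The Spearman rho between GC content and log2 fold change was 0.68 across these members and 0.09 across 13460 tested genes with a transcript. Against the level relative to the control mean in single libraries, rho was 0.68 in knockout 1, 0.17 in knockout 2 and 0.65 in knockout 3. In controls it was 0.13, -0.29 and 0.13. Over the 13460 genes the same rho was 0.20, -0.05 and 0.14 in knockouts 1 to 3 and 0.09, -0.20 and 0.12 in controls 1 to 3. Among the members the relation was stronger in knockouts 1 and 3 than in knockout 2. Transcript length gave a rho of -0.14. The points share their libraries and depth, and the part of GC content in these values was not tested.

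**Figure D4:**
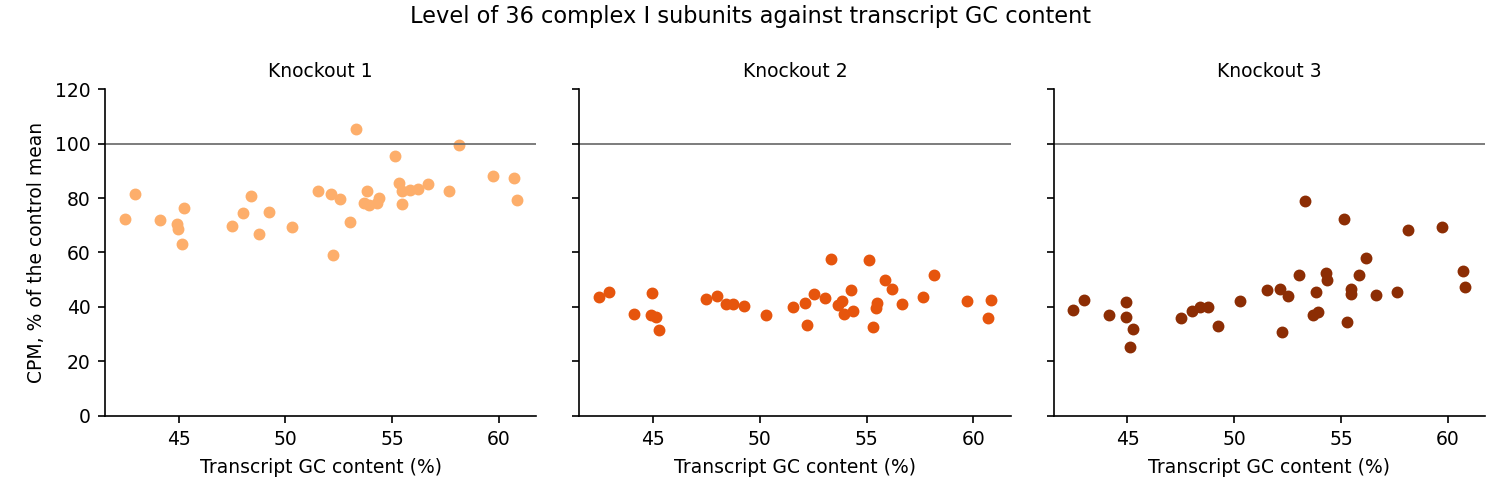
Level of 36 complex I subunits in each knockout library, as a percentage of the control mean, against the GC content of the transcript; each point is a gene. The points slope upward in knockouts 1 and 3 (Spearman rho 0.68 and 0.65) and lie flat in knockout 2 (0.17).

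The 37 members lay on 15 chromosomes, so they share no single locus. In NCBIM37 (mm9) with GENCODE M1, Ndufb4 (ENSMUSG00000022820) lies on the minus strand at chr16:37647256-37654539, Ndufs1 (ENSMUSG00000025968) on the minus strand at chr1:63190170-63223396 and Ndufc2 (ENSMUSG00000030647) on the plus strand at chr7:104548513-104556312. Uniqueness of sequence differed between members. Of the 100-base words in the Ndufb4 transcript, 38.0% also occur elsewhere in the genome, and the same held for 28.0% of Ndufab1, 27.5% of Ndufs3 and 17.8% of Ndufa12. The other members tested had none. For Ndufs5, the row at 0 counts, it was 66.0%. The authors kept uniquely mapped reads, so reads from words that occur elsewhere may be missing from the counts. Whether this gave the 0 counts of Ndufs5 was not tested. Exons of 9 members overlap those of another gene, among them Ndufs1, Ndufs3, Ndufb5 and Ndufa13, and the strand setting of the counting is not given in the sources used here.

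The transcripts of the assembly factors, the proteins that build complex I, had negative values with a median nearer to 0. Of 17 assembly factors tested, all had a negative log2 fold change, 5 fell, beside 6.64% of all genes, and the median was -0.60. Acad9, an assembly factor related to acyl-CoA dehydrogenases, had 2086, 2339 and 1726 counts in controls and 1350, 857 and 530 in knockouts (log2 fold change -1.20, SE 0.23; adjusted p = 0.0305, edgeR). The others that fell were Ecsit (-1.04), Ndufaf4 (-0.93), Tmem126b (-0.89) and Atp5sl, also named Dmac2 (-0.84), with adjusted p-values from 0.0404 to 0.0444. Tmem186 was nearest to 0, at -0.32 (adjusted p = 0.163). The number called was 0 without any 1 of the controls, knockout 2 or knockout 3, (7 to 10 with an unadjusted p under 0.05, edgeR), and 14 without knockout 1, where 16.4% of all genes were called lower.

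The other respiratory complexes and the mitochondrial ribosome were compared to see whether complex I stood out. Among 38 subunits of complexes II to V the median log2 fold change was -0.90, 4 fell, beside 6.64% of all genes, and 37 had non-overlapping groups with lower knockouts, beside 22.2%. The iron-sulfur subunit of complex II, Sdhb, had the most negative value, at -1.30 (SE 0.36; adjusted p = 0.0496, edgeR). Among 77 mitochondrial ribosomal proteins the median was -0.46, and 10 fell, beside the same 6.64%. Without any 1 of the controls, knockout 2 or knockout 3, edgeR called 0 in both lists (9 to 22 of complexes II to V and 23 to 39 of the ribosomal proteins with an unadjusted p under 0.05), and without knockout 1, where 16.4% of all genes were called lower, it called 38 and 57. In relation to complexes II to V, the summed complex I CPM was 34.2%, 34.5% and 35.7% in controls and 34.4%, 36.1% and 39.0% in knockouts, and these ranges overlapped. In relation to the mitochondrial ribosomal proteins it was 182%, 181% and 186% in controls and 167%, 130.1% and 124% in knockouts, with no overlap. In relation to the proximal tubule markers it was 31.8%, 23.3% and 26.2% in controls and 49.5%, 62.4% and 88.0% in knockouts, again with no overlap. Relative to the thick ascending limb markers it was 57.7%, 63.8% and 139% in controls and 80.5%, 301% and 219% in knockouts, and relative to the assembly factors 1055%, 985% and 1105% in controls and 1089%, 875% and 898% in knockouts, and both overlapped. In every knockout, complex I was thus lower relative to the ribosomal proteins and higher relative to the proximal tubule markers than in any control. These differences were not tested.

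**Figure D5:**
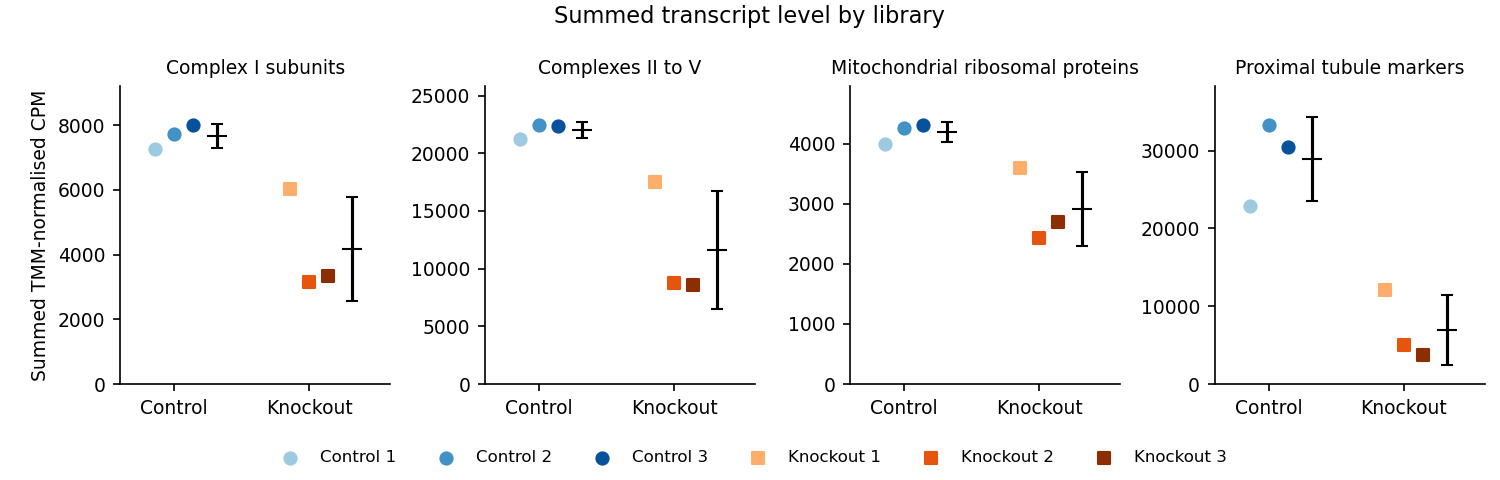
Summed TMM-normalised CPM of complex I subunits, complexes II to V, mitochondrial ribosomal proteins and proximal tubule markers in each library; bars give the mean and SD of 3 libraries. In all 4 panels knockout 1 lies between the controls and the other knockouts.

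Regulators of nuclear genes for mitochondria were the last list of the pathway. Of 10, 4 fell, beside 6.64% of all genes, and the median was -0.82. Ppargc1b and Ppargc1a encode PGC-1 coactivators of mitochondrial gene programmes. Ppargc1a was at 154 ± 8.30 CPM (SD, n = 3) in the control group and 75.0 ± 30.5 CPM in knockouts (log2 fold change -1.03, SE 0.28; adjusted p = 0.0492, edgeR), and Ppargc1b fell by 1.36 on the log2 scale (adjusted p = 0.0320). Tfam and Tfb2m, which serve transcription of mitochondrial DNA, fell by 0.72 (adjusted p = 0.0479) and 0.81 (adjusted p = 0.0301) on that scale. Esrrb, which encodes an estrogen-related receptor, had the most negative value of the list, -2.01, but its groups overlapped and it did not pass (SE 0.86; adjusted p = 0.132). Nrf1 stood at 0.19 (adjusted p = 0.334) and Yy1 at -0.00 (adjusted p = 0.999, edgeR). The calls in this list were 0 without any 1 of the controls, knockout 2 or knockout 3 (5 to 6 with an unadjusted p under 0.05, edgeR), and 7 without knockout 1, where 16.4% of all genes were called lower.

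Markers of cell types were counted beside the complex I values. Of 16 proximal tubule markers, 12 fell, with a median of -2.12, and none was at 0. Of 10 thick ascending limb markers none was called (median -1.05, 2 with an unadjusted p under 0.05), and 1 of 8 distal convoluted tubule markers and 1 of 10 collecting duct markers fell, counts near the 6.64% of all genes that fell. Among markers of cells outside the tubule, 7 of 8 macrophage markers, 4 of 8 fibroblast and pericyte markers, 4 of 9 lymphocyte markers and 2 of 8 podocyte markers rose, beside 10.6% of all genes, and 0 of 7 endothelial markers were called (2 with an unadjusted p under 0.05, edgeR). Every call in these marker lists was lost without any 1 of the controls, when edgeR called 0 of all genes (4270 to 4823 with an unadjusted p under 0.05). The summed macrophage CPM was 171 to 183 in controls and 407 to 1234 in knockouts, and that of fibroblasts and pericytes 361 to 689 and 1060 to 4100.3. Of 5 red blood cell markers, 4 were at 0 counts in every library. The part of these cell types in the complex I values was not tested.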

How the data were processed

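RNA was sequenced from 6 whole mouse kidneys. Per the labels and the study's methods, the authors called bases with CASAVA 1.8.2, trimmed reads with Trimmomatic, aligned them to mm9 with TopHat2 2.0.11, kept uniquely mapped reads and counted them with HTSeq. The deposited tables hold these counts, unscaled. The gene annotation and the strand setting are not given in the sources used here. Groups and replicate numbers came from the sample titles.

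Low genes were removed by filterByExpr (minimum count 10, minimum total 15), which left 15171, and libraries were scaled by TMM. The quasi-likelihood F test of edgeR 4.0.16 (legacy version, R 4.3.3) compared 3 with 3 libraries without covariates, with Benjamini-Hochberg adjustment across those genes and a threshold of 0.05. The SE of a log2 fold change was derived from its F statistic. Values in CPM are TMM-normalised and given per library or as mean ± SD. Wilson 95% intervals cover counting error only. The members and gene lists were chosen with earlier results of these data known, so no p-value was given over a list. Members named are the nuclear core subunits, Ndufa4, Ndufa4l2, Ndufab1, the 5 most negative and 5 most positive values, and every called member; in other lists, the called genes and both extremes. The values of 1 member are not reported here. Others named with values were chosen after their values were seen. Alternatives were DESeq2 1.42.0 size factors and Wald test, limma-voom (limma 3.58.1), the newer edgeR version, upper quartile scaling, library size alone, other filters, leaving out each library, and the replicate number as a block. The fit was tested on simulated counts. Replicate libraries differed by far more than sampling noise (chi-square of 45.1 to 108 per degree of freedom), so each counted once. Transcripts, GC content and gene positions are from GENCODE M1 on NCBIM37, by the transcript with the longest coding sequence. Promoters are from RefSeq on GRCm38.p6.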

Additional observations from a re-analysis of the deposited data

How the results depend on the processing

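The direction of the complex I result held in all 15 alternatives, in each of which 36 of 37 members had a negative log2 fold change, but the number called did not. Of the members, 4 were called with library size alone and 31 with DESeq2's Wald test, while 8 to 12 were called with the other scalings, filters and tests on all 6 libraries. Leaving out 1 library gave 0 to 35 members called, with a median log2 fold change of -1.21 to -0.70 and a summed share of library counts at 52.5% to 71.9% of controls, beside 64.9% with all 6. For all genes, the Wald test called 4882 and leaving out 1 library 0 to 5332. For assembly factors, library size alone gave 2, the Wald test 11 and leaving out 1 library 0 to 14. For complexes II to V, DESeq2 size factors, limma-voom and the newer edgeR version each gave 7, library size alone 2, the Wald test 35 and leaving out 1 library 0 to 38. For mitochondrial ribosomal proteins, DESeq2 size factors gave 16, the Wald test 34 and leaving out 1 library 0 to 57. For regulators, library size alone gave 2, the Wald test 7 and leaving out 1 library 0 to 7. Library size alone moved the median of all genes from 0.02 to 0.29 and that of the members from -0.83 to -0.58, with 2985 genes higher and 662 lower in place of 1604 and 1008. The cause of these differences was not tested. Among 21 named members, 315 alternative values held 235 with the same call, 61 that lost it, 19 that gained it and 0 that changed sign.

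With the replicate number as a block, the quasi-likelihood test called 0 of all genes (5432 with an unadjusted p under 0.05), 0 members (33 with an unadjusted p under 0.05), 0 assembly factors, 0 subunits of complexes II to V, 0 mitochondrial ribosomal proteins and 0 regulators, and the median of the members was -0.90. The sample titles do not say that the numbers pair the libraries. The correlations of same-numbered libraries, as deviations from their group means, were -0.13, 0.01 and 0.21. Differently numbered libraries were not compared, so these values cannot settle the pairing.

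Depth limits Ndufa4l2 most, which had 107 to 211 counts per library, while every other member had at least 563.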
